A study of Mus musculus with 9 samples.

Results

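The circadian clock genes examined here were Per1, Per2, Per3, Cry1, Npas2, Nr1d1 and Nr1d2 of the clock itself and Dbp, Hlf and Nfil3 of its output, taken by name. All 10 of these genes were on the array, with 21 of its 45101 probe sets, and all 10 passed the filter on low values that left 11274 of 18194 genes to be tested. Expression was measured in colonic mucosa on 9 arrays, 3 each from hGAS mice, which carry a human progastrin transgene, from Gas-/- mice lacking the gastrin gene (GasKO) and from wild-type mice (WT). All mice were males on a C57BL/6 background aged 6 weeks, kept under a 12-hour light-dark cycle. The labels state neither the promoter of the transgene nor the cells in which it is active, and give no time of day at killing, whose part in the results was not tested. Since no label ties the replicates to different animals, p-values here cover only how far these arrays differ. In such bulk tissue, fewer cells of a type and less RNA per cell cannot be told apart.

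In mammalian cells the clock is a feedback loop of transcription. The activators CLOCK or NPAS2 pair with BMAL1, the product of Arntl, and switch on genes through E-box sequences, among them the Per and Cry genes, whose proteins return to block the activators. In a second loop NR1D1 and NR1D2 (REV-ERB alpha and beta) repress Arntl, Npas2, Cry1 and Nfil3 through ROR elements, to which the activating ROR receptors also bind. DBP, TEF and HLF activate genes through D-box sequences, and NFIL3 represses at the same sites. In the gut, epithelial cells carry this clock, and feeding times and glucocorticoids can shift it.

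Values are on the log2 scale as deposited by the authors, so a difference of 1 is a 2-fold change, and a group mean under 4 is called near background. A gene was called changed at an adjusted p under 0.05 in limma, with adjustment over all 11274 genes. The array medians lay between 4.13 and 4.16. Gast, the gene deleted in GasKO, gave no signal above background on any array, with means of 1.95 ± 0.01 in hGAS, 2.08 ± 0.08 in GasKO and 1.96 ± 0.02 in WT (SD, n = 3 each), so it checks neither genotype. As a check of the labelled tissue, the mean of the colonocyte markers lay between 11.86 and 12.31 on the 9 arrays and that of the goblet cell markers between 13.52 and 13.73. The smooth muscle markers lay between 12.03 and 12.28, so the mucosa held muscle RNA as well. Of these 9 markers 0 were called by limma in any comparison, where from 1.16% to 16.6% of all genes tested were called.

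Promoter sequences were searched for the motifs through which these genes are known to act on each other, and for the cAMP response element. RefSeq promoters (build GRCm38.p6, from 250 bases before to 50 after the start of transcription) were matched for 9 of the 10 genes, Per1 having a pair of them, and Per2 was not in that table. Both strands were searched for the E-box CACGTG, the D-box as TTATGTAA or TTACGTAA, the ROR element core TAGGTCA and the cAMP response element TGACGTCA. These letters stood in 7.15%, 0.938%, 0.119%, 2.61% and 1.79% of all 32851 promoters in the table. Of the 10 promoters of these genes, 2, 1, 0, 1 and 1 held them, in the same order, so that 5 held at least 1 match. The share of all promoters with at least 1 match was not counted. The 4 shown hold a clock motif, given in capitals, and belong to Cry1 (chr10:85185005-85185304, minus strand), Per1 (chr11:69098699-69098998, plus strand), Per3 (chr4:151044616-151044915, minus strand) and Nfil3 (chr13:52980990-52981289, minus strand).
Cry1: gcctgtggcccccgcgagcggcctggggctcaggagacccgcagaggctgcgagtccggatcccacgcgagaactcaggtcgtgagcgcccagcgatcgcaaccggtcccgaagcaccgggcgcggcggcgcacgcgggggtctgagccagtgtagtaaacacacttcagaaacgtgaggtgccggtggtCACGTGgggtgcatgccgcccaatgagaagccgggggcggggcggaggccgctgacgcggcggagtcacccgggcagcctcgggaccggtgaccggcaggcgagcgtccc
Per1: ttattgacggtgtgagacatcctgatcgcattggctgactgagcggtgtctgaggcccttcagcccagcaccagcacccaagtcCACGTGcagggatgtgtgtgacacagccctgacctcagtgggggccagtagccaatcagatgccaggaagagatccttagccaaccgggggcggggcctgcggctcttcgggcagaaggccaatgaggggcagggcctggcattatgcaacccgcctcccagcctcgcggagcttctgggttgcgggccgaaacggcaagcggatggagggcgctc
Per3: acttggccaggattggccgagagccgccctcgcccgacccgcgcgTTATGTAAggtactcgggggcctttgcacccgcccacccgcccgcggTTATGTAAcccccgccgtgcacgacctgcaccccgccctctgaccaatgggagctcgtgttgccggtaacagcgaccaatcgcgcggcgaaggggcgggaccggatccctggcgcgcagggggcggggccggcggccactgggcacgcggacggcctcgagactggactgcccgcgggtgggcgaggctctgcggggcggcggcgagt
Nfil3: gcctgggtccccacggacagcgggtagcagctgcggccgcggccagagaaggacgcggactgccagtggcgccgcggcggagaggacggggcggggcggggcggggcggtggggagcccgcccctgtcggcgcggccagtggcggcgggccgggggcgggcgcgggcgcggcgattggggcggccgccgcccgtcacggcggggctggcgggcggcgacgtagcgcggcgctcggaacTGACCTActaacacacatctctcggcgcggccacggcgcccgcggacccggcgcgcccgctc

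The capitals mark an E-box in Cry1 that begins at base -60, counted from the start of transcription, and one in Per1 at -166. In Per3 they mark 2 copies of the D-box TTATGTAA, at -205 and -158, and in Nfil3 the ROR core at -12, which is read there on the opposite strand. The remaining match was a cAMP response element in Hlf at -9, and no match was found in the windows of Npas2, Nr1d1, Nr1d2 or Dbp. A match describes the letters in these windows and does not show that a factor binds there. Sites outside these windows, or with other letters, were not searched, so a missing match does not show that a gene lacks such sites.

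All hGAS arrays were below all WT arrays for the D-box activator genes Dbp and Hlf, the REV-ERB genes Nr1d1 and Nr1d2 and Per3, and above them for Cry1 and Nfil3, but Cry1 was the only one of the 10 genes called. Cry1, a repressor of the loop, rose 1.38-fold in hGAS, while Nfil3 stood at 1.95-fold above WT and Dbp at 3.08-fold below it, neither passing the test. Across the 11274 genes 1.16% were called in hGAS vs WT, and 0.639% rose. The hGAS and WT arrays did not overlap for 7 of the 10 genes, 2 higher and 5 lower, where 17.7% of all genes tested did not overlap, 9.35% higher and 8.36% lower. The median absolute log2 difference was 0.544 over the 10 genes and 0.081 over all genes tested. The 10 genes were chosen with earlier results of these data known. Here and in the comparisons below, the contrasts with all genes thus describe this list and carry no test. Of clock genes outside the 10, Arntl, Clock, Cry2, Rora and Timeless overlapped between hGAS and WT. For Tef and Bhlhe40 all hGAS arrays were below all WT arrays.

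In GasKO vs WT other genes of the 10 were called. Npas2, an activator of the loop, fell 1.97-fold and Per1, a repressor that also responds to glucocorticoids and cAMP, fell 1.88-fold, and the other 8 genes were not called. In GasKO vs WT 12.1% of all genes tested were called and 5.48% fell, against 2 of these 10, both fallen. The number called was thus near the share of all genes and does not set the 10 genes apart. The groups did not overlap for 2 of the 10, Npas2 and Per2, where 31.1% of all genes did not overlap. The median absolute log2 difference was 0.19 over the 10 genes and 0.109 over all genes tested. Between the genetically altered groups, hGAS vs GasKO, 6 of the 10 genes were called and 16.6% of all genes. Npas2, Per1, Cry1 and Nfil3 rose, where 8.05% of all genes rose, and Nr1d1 and Hlf fell, where 8.51% fell. These 6 genes were also those whose groups did not overlap, which was so for 36.7% of all genes. A test of the 3 genotypes together (moderated F) called 7 of the 10 genes and 15.8% of all genes. Of the 16 probe sets that passed the filter, 1 rose in hGAS vs WT, 4 fell in GasKO vs WT, and 5 rose and 2 fell in hGAS vs GasKO, where 0.872%, 11.0% and 14.7% of all 19834 probe sets tested were called. The 4 and the 5 each include a second Npas2 probe set, which passed the filter only through hGAS and WT arrays. The comparisons of hGAS and of GasKO with WT share their WT arrays.

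**Figure D1:**
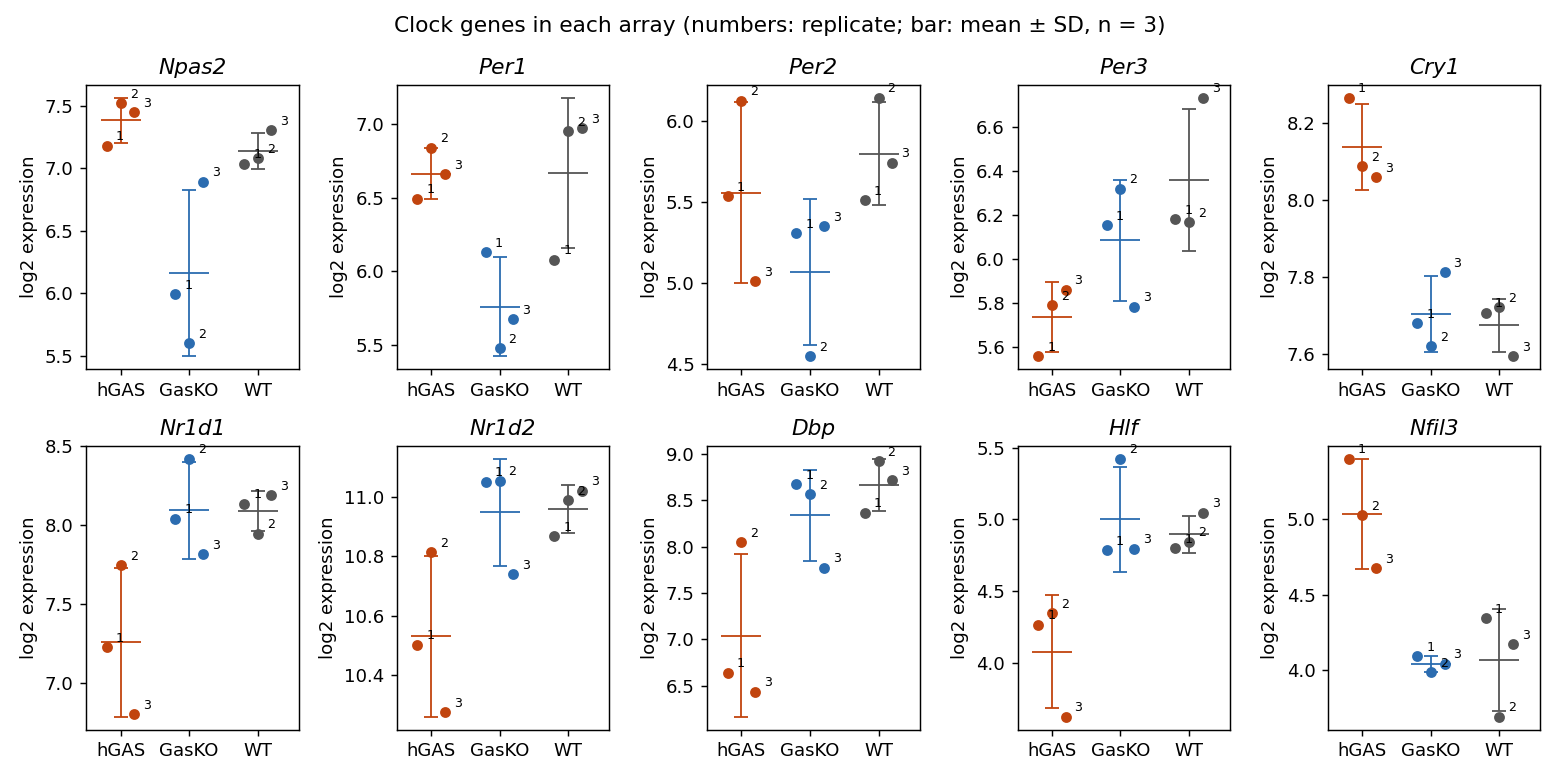
Expression of the 10 clock genes (log2, 1 probe set a gene) in each array of hGAS, GasKO and WT mucosa. Numbers mark the replicate, the long bar the mean and the whiskers the SD (n = 3). The hGAS arrays lie apart from WT for Cry1, Nfil3, Dbp, Hlf, Nr1d1, Nr1d2 and Per3, and the GasKO arrays for Npas2 and Per2.

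**Figure D2:**
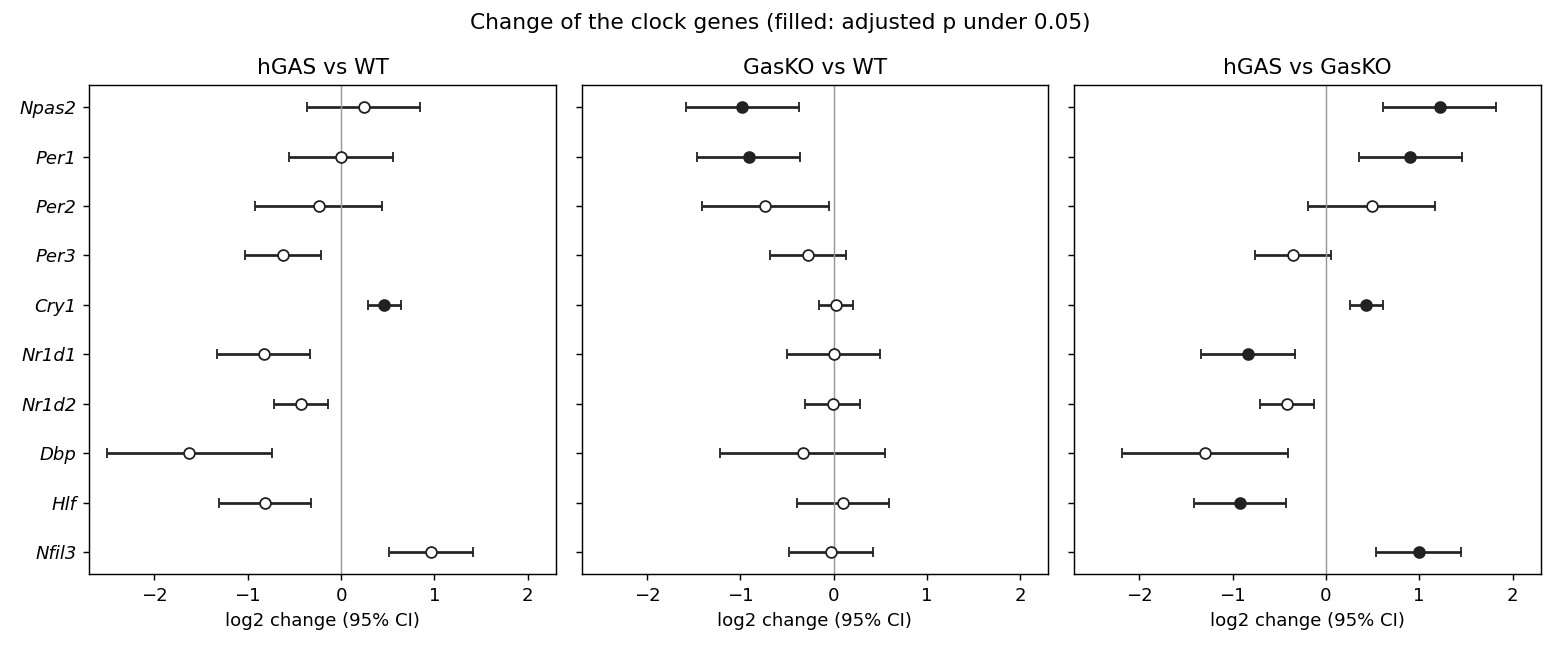
Log2 change of each clock gene in hGAS vs WT, GasKO vs WT and hGAS vs GasKO, with 95% confidence intervals from the limma fit. Filled points passed an adjusted p under 0.05, which were 1, 2 and 6 genes.

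Among the activators, Npas2, the partner that takes the place of CLOCK in some tissues, had 7.18, 7.52 and 7.45 in hGAS, 5.99, 5.60 and 6.89 in GasKO, and 7.03, 7.08 and 7.30 in WT. Every GasKO array was below every array of the other groups, and replicate 3 was the closest to them. The change was -0.98 in GasKO vs WT (SE 0.27, adjusted p = 0.0439), 0.24 in hGAS vs WT (adjusted p = 0.746) and 1.22 in hGAS vs GasKO (SE 0.27, adjusted p = 0.0139). A second probe set of Npas2 lay at 4.10, 3.97 and 4.05 in hGAS, at 2.18, 2.20 and 2.21 in GasKO, and at 3.94, 3.94 and 4.25 in WT. In the fit of all probe sets, this one stood at -1.85 in GasKO vs WT. It passed the filter through 3 arrays only, hGAS replicates 1 and 3 and WT replicate 3. Its GasKO level is near background, and its hGAS and WT means, 4.04 each, lie at the limit of that range. The difference thus depends on the background level and is no separate support for the Npas2 call.

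Leaving out GasKO replicate 3 gave Npas2 a change of -1.34 in GasKO vs WT (adjusted p = 0.00111), and the call was lost without any one of the other 8 arrays, with adjusted p up to 0.145. The hGAS vs GasKO call was lost without GasKO replicate 1 (adjusted p = 0.0571). The other activators, Arntl and Clock, which encode BMAL1 and CLOCK, were not called in any comparison. Arntl had 8.75, 8.59 and 9.01 in hGAS, 8.36, 8.29 and 8.59 in GasKO, and 8.66, 8.42 and 8.71 in WT, so that the hGAS and WT arrays overlapped. Its change was 0.37 in hGAS vs GasKO (adjusted p = 0.0717). Clock differed by -0.18 in GasKO vs WT (adjusted p = 0.210) and by -0.13 in hGAS vs WT (adjusted p = 0.525). Arntl2, which can replace Arntl, did not pass the filter.

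Of the Period repressors, Per1 had 6.49, 6.84 and 6.66 in hGAS, 6.13, 5.48 and 5.67 in GasKO, and 6.08, 6.95 and 6.97 in WT. WT replicate 1 lay below GasKO replicate 1, so the GasKO and WT groups overlapped, while all hGAS arrays were above all GasKO arrays. Per1 changed by -0.91 in GasKO vs WT (SE 0.25, adjusted p = 0.0411), by -0.003 in hGAS vs WT (95% interval -0.56 to 0.55) and by 0.91 in hGAS vs GasKO (SE 0.25, adjusted p = 0.0347). The GasKO vs WT call was kept without GasKO replicate 1 (adjusted p = 0.0381) or WT replicate 1 (-1.20, adjusted p = 0.00497) and lost without any one of the other 7 arrays, with adjusted p up to 0.137. The hGAS vs GasKO call was lost without GasKO replicate 2 or 3 or any 1 hGAS array, with adjusted p up to 0.108. Per1, Nr1d1 and Hlf lie on chromosome 11, as does Gast, and of these 3 genes Per1 alone was called in GasKO vs WT. Nr1d1 stood there at 0.002 and Hlf at 0.105. How far these genes lie from Gast was not measured, and a part of the targeted locus in their values was not tested.

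Per2, the other main repressor of this family, had 5.54, 6.13 and 5.01 in hGAS, 5.31, 4.55 and 5.35 in GasKO, and 5.51, 6.15 and 5.74 in WT. The GasKO arrays were all below the WT arrays and overlapped the hGAS arrays, and its change of -0.73 in GasKO vs WT did not pass the test (SE 0.30, adjusted p = 0.163). The other probe sets of Per2 did not pass the filter and stayed between 3.09 and 4.15 on the 9 arrays. Without GasKO replicate 2 the change was -0.47.

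Per3, which is not needed for the loop in most tissues, was measured by 6 probe sets, of which 4 passed the filter. The one taken for the gene had 5.56, 5.79 and 5.86 in hGAS, 6.15, 6.32 and 5.78 in GasKO, and 6.18, 6.17 and 6.73 in WT. All hGAS arrays were below all WT arrays, at -0.62 (SE 0.18, adjusted p = 0.148), and the GasKO arrays overlapped both. All 4 probe sets had lower means in hGAS and in GasKO than in WT, by 0.54 to 0.78 in hGAS vs WT and by 0.25 to 1.28 in GasKO vs WT. One of them fell in GasKO vs WT by 1.28 (adjusted p = 0.00843), with 4.40, 4.87 and 4.43 in GasKO against 5.57, 5.68 and 6.30 in WT. Its hGAS values of 4.66, 5.43 and 5.12 lay below all WT values as well. Whether Per3 was called in GasKO vs WT thus depended on the probe set.

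Cry1, whose protein blocks CLOCK and BMAL1 and whose promoter window holds the E-box shown, had 8.27, 8.09 and 8.06 in hGAS, 7.68, 7.62 and 7.81 in GasKO, and 7.71, 7.72 and 7.60 in WT. All hGAS arrays were above all 6 others, and the GasKO and WT arrays overlapped. Cry1 rose by 0.46 in hGAS vs WT (SE 0.08, adjusted p = 0.0298) and was 0.43 above GasKO (SE 0.08, adjusted p = 0.00561), while GasKO vs WT gave 0.03 (95% interval -0.15 to 0.21). The call against GasKO held without any 1 array. The call against WT held in 2 of 9 such fits, without GasKO replicate 2 or without GasKO replicate 3 (adjusted p = 0.0489 each), and the change stayed between 0.40 and 0.50 in all 9, with adjusted p up to 0.109. Its relative Cry2 was not called, at -0.12 in hGAS vs WT (adjusted p = 0.693).

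Of the other repressors, Bhlhe40, which competes at E-boxes, averaged 9.87 ± 0.08 in hGAS, 9.98 ± 0.03 in GasKO and 10.17 ± 0.15 in WT (SD, n = 3 each). All arrays of hGAS and GasKO were below every WT array, but the gene was not called, at -0.31 in hGAS vs WT (adjusted p = 0.0897) and -0.19 in GasKO vs WT (adjusted p = 0.133). Timeless was called in no comparison, and Bhlhe41 and Ciart did not pass the filter.

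In the second loop, Nr1d1 had 7.23, 7.75 and 6.80 in hGAS, 8.04, 8.42 and 7.82 in GasKO, and 8.13, 7.95 and 8.19 in WT. The hGAS arrays lay below all 6 others, and replicate 2 was the highest of them. The change was -0.83 in hGAS vs WT (SE 0.22, adjusted p = 0.119), which did not pass, and -0.83 in hGAS vs GasKO (SE 0.22, adjusted p = 0.0319), which did. Without hGAS replicate 2 the differences were -1.08 from WT (adjusted p = 0.0584) and -1.08 from GasKO (adjusted p = 0.00714). The hGAS vs GasKO call was lost without hGAS replicate 1 or 3 or GasKO replicate 1 or 2, with adjusted p up to 0.0998.

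Nr1d2, the second REV-ERB, had 10.50, 10.81 and 10.28 in hGAS, 11.05, 11.05 and 10.74 in GasKO, and 10.87, 10.99 and 11.02 in WT. The hGAS arrays were below all WT arrays, at -0.43 (SE 0.13, adjusted p = 0.166), and overlapped GasKO at -0.42 (SE 0.13, adjusted p = 0.0567). Its weaker probe set also had every hGAS array below every WT array, at -0.78 (adjusted p = 0.158). Without hGAS replicate 2 Nr1d2 was called in hGAS vs GasKO at -0.56, and without GasKO replicate 3 at -0.52. It was also called there with the replicate block (adjusted p = 0.0280). In GasKO vs WT the change was 0.002 for Nr1d1 and -0.01 for Nr1d2 (adjusted p = 0.997 and 0.976). Rora, which activates at the same elements, stood at -0.01 in hGAS vs WT (adjusted p = 0.968) and at -0.11 in GasKO vs WT (adjusted p = 0.321), and Rorb did not pass the filter.

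Among the D-box factors, Dbp, an output gene driven directly by the activators, had 6.64, 8.04 and 6.44 in hGAS, 8.67, 8.57 and 7.77 in GasKO, and 8.36, 8.92 and 8.71 in WT. Replicates 1 and 3 of hGAS lay well below all other arrays, while replicate 2 lay below the WT arrays and above GasKO replicate 3. The SD of 0.87 in hGAS was the largest of the 3 groups, against 0.49 in GasKO and 0.28 in WT. Dbp stood at -1.62 in hGAS vs WT (95% interval -2.51 to -0.74, adjusted p = 0.0893) and at -1.30 in hGAS vs GasKO (adjusted p = 0.0517). Without hGAS replicate 2 it was called in both, at -2.13 (adjusted p = 0.0152) and -1.80 (adjusted p = 0.00319), and without GasKO replicate 3 it was called against GasKO (adjusted p = 0.0474). With the replicate number as a block over all 9 arrays, WT included, Dbp was called in hGAS vs GasKO as well (adjusted p = 0.0186).

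A second Dbp probe set had 4.80, 6.50 and 4.45 in hGAS, 7.19, 7.20 and 6.26 in GasKO, and 7.03, 7.83 and 7.47 in WT, with the arrays of hGAS again below all WT arrays. It stood at -2.19 in hGAS vs WT (adjusted p = 0.0817 over all probe sets) and was not called either. Tef, a close relative of Dbp, had 6.70, 7.30 and 6.44 in hGAS, 7.76, 7.63 and 7.36 in GasKO, and 7.40, 7.97 and 7.81 in WT. Tef fell by 0.77 in hGAS vs GasKO (adjusted p = 0.0419) and stood at -0.91 in hGAS vs WT (adjusted p = 0.0890).

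Hlf, the third activator of this family, had 4.27, 4.34 and 3.62 in hGAS, 4.79, 5.42 and 4.79 in GasKO, and 4.80, 4.84 and 5.05 in WT. Each hGAS array was below each of the 6 others. Hlf fell by 0.92 in hGAS vs GasKO (SE 0.22, adjusted p = 0.0197) and stood at -0.82 in hGAS vs WT (SE 0.22, adjusted p = 0.120). The first call was lost without GasKO replicate 2 (adjusted p = 0.0542). The hGAS mean of Hlf, 4.08, lies just above the range called near background, so the size of these differences may depend on the background level. Its other probe set was at background on every array, between 1.99 and 2.03.

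Nfil3, the repressor that binds the same D-box and whose promoter window holds the ROR core shown, had 5.40, 5.03 and 4.67 in hGAS, 4.09, 3.99 and 4.04 in GasKO, and 4.34, 3.69 and 4.17 in WT. Each hGAS array was above each of the 6 others. Nfil3 rose by 0.99 in hGAS vs GasKO (SE 0.20, adjusted p = 0.00907), and this call held without any 1 array. Against WT it stood at 0.96 (95% interval 0.51 to 1.42, adjusted p = 0.0602) and was called without hGAS replicate 3 (1.14, adjusted p = 0.0396). In GasKO vs WT Nfil3 differed by -0.03 (adjusted p = 0.954). Its GasKO and WT means, 4.04 and 4.07, lie just above the range called near background, so the size of its differences from hGAS may depend on the background level.

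**Figure D3:**
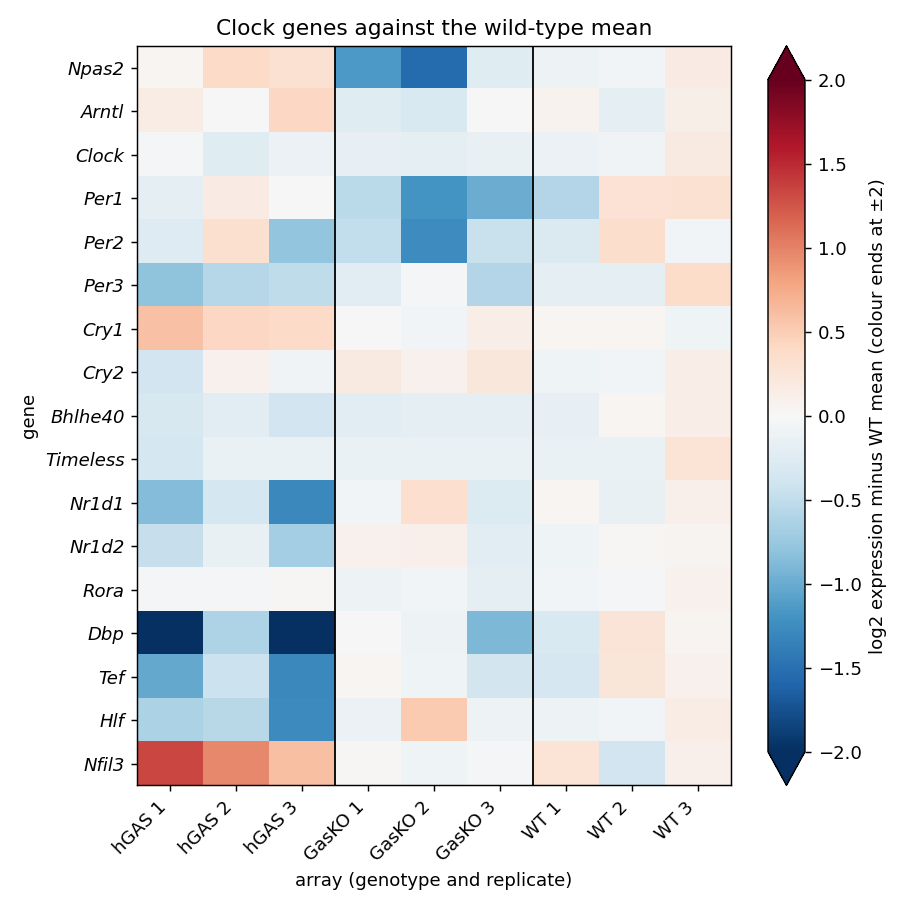
Log2 expression minus the WT mean for 17 clock genes (rows, from activators and repressors at the top to D-box factors at the bottom) in each hGAS, GasKO and WT array (columns). Blue is below and red above the WT mean. The hGAS arrays are blue for Nr1d1, Nr1d2, Dbp, Tef and Hlf and red for Cry1 and Nfil3, and the GasKO arrays are blue for Npas2, Per1 and Per2. Per3, Bhlhe40, Clock and Timeless also lie below the WT mean in every hGAS and GasKO array, and Arntl and Rora in every GasKO array. Npas2 lies above it in every hGAS array and Cry2 in every GasKO array.

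Some of the genes varied together within groups as well. With each group's mean subtracted, the deviations of Dbp over the 9 arrays had a Pearson correlation of 0.952 with those of Nr1d2, 0.946 with Tef and 0.787 with Nr1d1, and of -0.818 with Arntl. For the other genes of the 10 the correlation with Dbp was weaker, at 0.546 for Hlf, 0.539 for Per2, 0.468 for Per1, 0.34 for Per3, -0.102 for Nfil3, -0.269 for Npas2 and -0.421 for Cry1. In hGAS replicate 2, Dbp, Hlf, Nr1d1, Nr1d2 and Tef were all at their highest among the hGAS arrays, and in replicate 3 all 5 were at their lowest of the 9 arrays. These correlations describe 9 arrays that share one normalisation, and the Dbp values that enter them ranged over 1.61 in hGAS and 0.556 in WT.

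**Figure D4:**
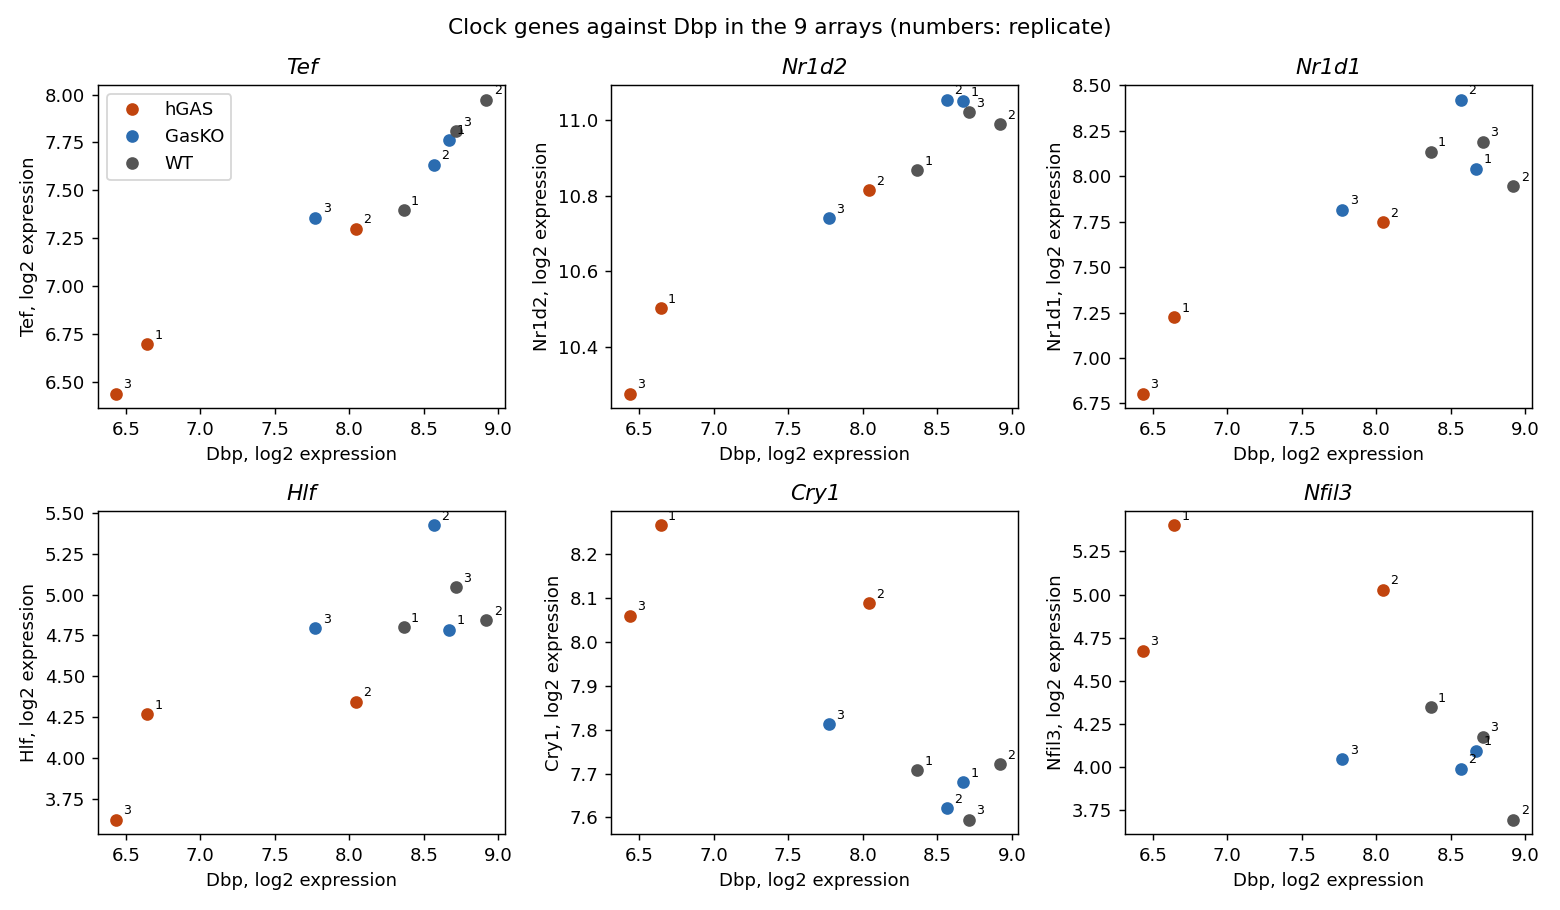
Log2 expression of Tef, Nr1d2, Nr1d1, Hlf, Cry1 and Nfil3 (vertical axes) against Dbp (horizontal axes) in the 9 arrays, coloured by genotype and numbered by replicate. The hGAS replicates 1 and 3 lie at the low end of Dbp, at 6.64 and 6.44, and hGAS replicate 2 lies near GasKO replicate 3.

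Over all genes tested, the 5 outside the 10 whose levels followed Dbp most closely across the 9 arrays were Tef (r = 0.982), Ppp1r7 (0.956), Notch2 (0.942), Babam2 (0.936) and Sult2b1 (0.932). With group means subtracted their correlations were between 0.781 and 0.946. For Npas2 the closest were Cisd2 (r = 0.975), Kifc2 (0.966), Dctd (0.959), 0610030E20Rik (0.958) and Numb (0.953), with values from 0.920 to 0.953 after subtracting group means. Of these, Cisd2 fell in GasKO vs WT by 0.54 (adjusted p = 0.0139). Both rankings describe the same 9 arrays and carry no test.

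Of 9 tested genes that act on the clock proteins, 0 were called by limma in hGAS vs WT, where 1.16% of all genes tested were called. In GasKO vs WT 1 of 9 was called, near the share of 12.1% over all genes. Btrc, a ubiquitin ligase subunit that marks PER proteins for destruction, fell 1.63-fold, with 6.33, 6.48 and 6.18 in GasKO against 6.84, 7.20 and 7.05 in WT (adjusted p = 0.00302). In hGAS vs GasKO, Btrc and the deacetylase gene Sirt1 rose by 0.56 and 0.38, and Fbxw11, a relative of Btrc, fell by 0.21. In that comparison 16.6% of all genes were called. Of 9 genes listed as rhythmic in many tissues, outside the 10, 1 was called in hGAS vs WT, where Tsc22d3 rose. In GasKO vs WT 1 was called, where Hsd3b3 fell, against the same shares of all genes as above. The kinase gene Wee1 and the protease gene Usp2 were called in no comparison. The median log2 difference of these 9 was 0.027 in hGAS vs WT, where that of all genes was 0.008.

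Glucocorticoid-related genes were set beside Per1, which responds to these hormones. The list holds responsive genes but also the receptor genes Nr3c1 and Nr3c2 and the enzyme genes Hsd11b1 and Hsd11b2, so its counts are not of responsive genes alone. Hsd11b1 was the gene that rose in GasKO vs WT and the gene that fell in hGAS vs GasKO in the counts that follow. Of 15 others tested, 1 rose and 0 fell in hGAS vs WT, 1 rose and 3 fell in GasKO vs WT, and 5 rose and 1 fell in hGAS vs GasKO, by limma, where 1.16%, 12.1% and 16.6% of all genes tested were called. Tsc22d3, which encodes the glucocorticoid-induced leucine zipper, rose 1.63-fold in hGAS vs WT, with 10.10, 10.42 and 9.88 in hGAS, 9.52, 9.30 and 9.34 in GasKO, and 9.21, 9.55 and 9.53 in WT (adjusted p = 0.0465). All hGAS arrays were above the 6 others.

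Sgk1, a kinase gene induced by corticosteroids, fell 1.48-fold in GasKO vs WT, with 12.19, 12.62 and 12.03 in hGAS, 11.29, 11.28 and 11.35 in GasKO, and 11.69, 12.02 and 11.91 in WT (adjusted p = 0.0235). The 3 groups did not overlap, and hGAS vs WT gave 0.41 (adjusted p = 0.205). The metallothionein genes Mt1 and Mt2 fell in GasKO vs WT by 0.55 and 0.64 (adjusted p = 0.00139 and 0.0113), and Hsd11b1, whose enzyme makes active glucocorticoid, rose by 0.73 (adjusted p = 0.00154). Zbtb16, of the same list, went the other way, at 1.22 in GasKO vs WT with all GasKO arrays above all WT arrays, but was not called (adjusted p = 0.133). Fkbp5, another induced gene, was called in no comparison, and the receptor gene Nr3c1 stood at 0.08 in hGAS vs WT and 0.03 in GasKO vs WT.

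**Figure D5:**
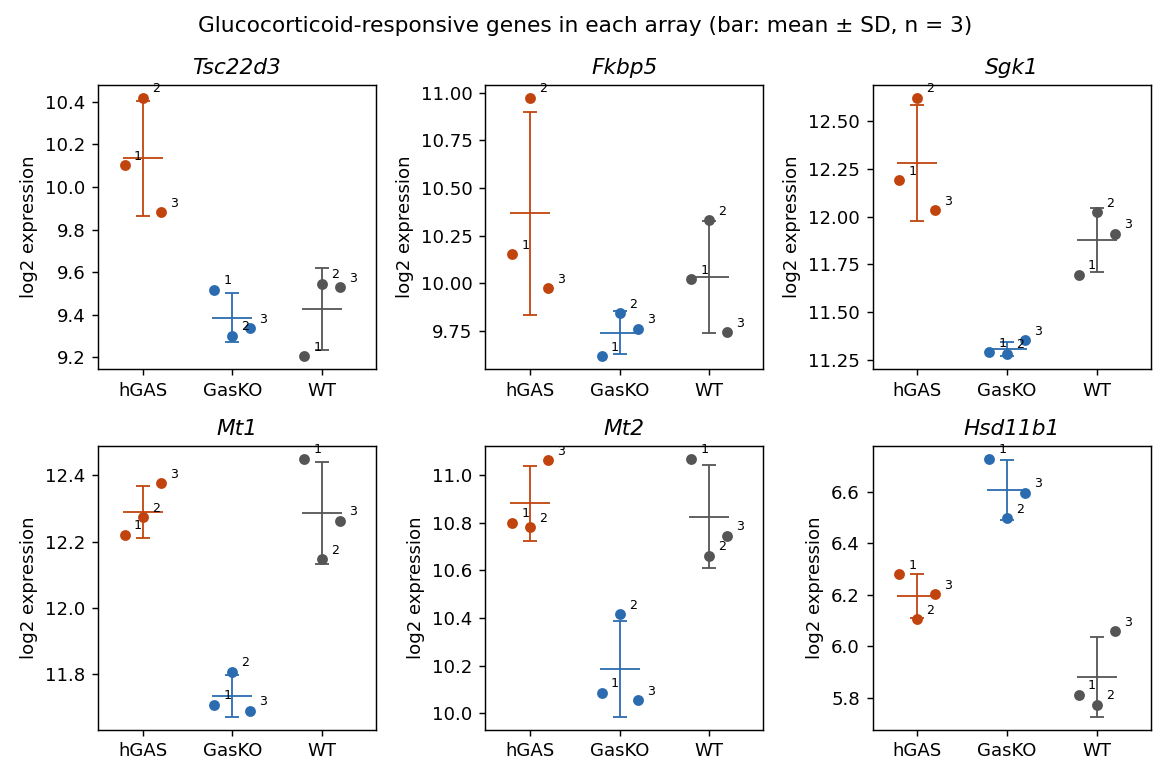
Log2 expression of 6 glucocorticoid-related genes in each hGAS, GasKO and WT array. Numbers mark the replicate, the long bar the mean and the whiskers the SD (n = 3). Tsc22d3 is highest in the hGAS arrays, and Sgk1, Mt1 and Mt2 are lowest in the GasKO arrays.

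Of 13 immediate early and cAMP-responsive genes other than Per1, 0 were called in hGAS vs WT and 0 in GasKO vs WT. The shares over all genes tested were 1.16% and 12.1%. In hGAS vs GasKO, where 16.6% of all genes were called, Jun rose by 0.42 (adjusted p = 0.0198) and Junb fell by 0.35 (adjusted p = 0.0452). Among 10 metabolic nuclear receptor and cofactor genes, Ppara, a fatty acid sensor, and Nr1h4, the bile acid receptor, rose in hGAS vs GasKO by 1.09 and 0.87 (adjusted p = 0.00509 and 0.00765), and neither was called against WT (adjusted p = 0.0945 and 0.0598 in hGAS).

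Markers of cell types and colon regions moved with the genotypes too. A marker list's score is the mean log2 value of its genes after subtracting each gene's mean over the 9 arrays. Beside the counts below, 1.16% of all genes tested were called in hGAS vs WT and 12.1% in GasKO vs WT. B cell markers scored from -1.55 to -0.96 in hGAS, from 0.77 to 1.47 in GasKO and from -0.03 to 0.60 in WT, with 3 of 5 fallen in hGAS vs WT and 3 of 5 risen in GasKO vs WT. Proximal colon genes scored from 0.71 to 1.90 in hGAS, from -0.69 to -0.62 in GasKO and from -0.83 to -0.33 in WT, and 4 of 7 rose in hGAS vs WT. Of these 4, Hoxb6, Osr2 and Prap1 passed the filter only through the hGAS arrays, where they are high. Their GasKO and WT means, from 2.34 to 3.34, are near background. Their rise and this score thus depend on the filter and the background level, and the count cannot be weighed against the share of all genes. Plasma cell markers scored from -0.13 to 0.24 in hGAS, from 0.30 to 0.54 in GasKO and from -0.95 to -0.29 in WT, and myeloid markers from -0.38 to 0.03 in hGAS, from 0.20 to 0.43 in GasKO and from -0.17 to -0.06 in WT. Distal colon genes scored from -0.41 to -0.19 in hGAS, from -0.20 to 0.05 in GasKO and from 0.33 to 0.57 in WT. Of these 7 distal genes 2 fell in hGAS vs WT (median log2 difference -0.57). The 3 that fell in GasKO vs WT were the sodium channel genes Scnn1g and Scnn1b and the ion transport regulator gene Fxyd4, which fell by 1.56, 0.70 and 1.64, while the median of the 7 was 0.015. The proximal score was highest in hGAS replicate 2, at 1.90, and lowest among the hGAS arrays in replicate 3, at 0.71, while Dbp was 8.04 in replicate 2 and 6.44 in replicate 3. Between the groups the order was the opposite. The hGAS arrays had the highest proximal scores and the lowest Dbp mean, 7.04 against 8.34 in GasKO and 8.67 in WT. The 3' minus 5' log2 difference of the Gapdh probe sets, a sign of RNA integrity, lay between -0.15 and -0.07 in hGAS, between -0.12 and -0.09 in GasKO and between -0.18 and -0.14 in WT. That of the actin probe sets lay between 0.88 and 0.94 in hGAS, between 0.87 and 0.94 in GasKO and between 0.76 and 0.89 in WT. The part of these cell, region and RNA differences in the clock gene results was not tested.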

How the data were processed

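Expression was measured on 9 Affymetrix-type arrays of colonic mucosa RNA labelled with biotin, 3 each of hGAS, GasKO and WT mice, grouped by the genotype in the labels. The authors deposited log2 values, made with GCRMA per the submitters' processing notes, with no version given there. It is a method that corrects background from probe sequence and gives 1 value per probe set. Differences near background depend on that correction. The scanner files were not used here, and the number of arrays limits the precision.

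Of 45101 probe sets, 34958 were paired with 1 gene by the platform annotation, and 34754 of these were matched to RefSeq by Entrez number with 0 symbols changed. For each of 18194 genes the brightest probe set by mean over the 9 arrays was taken, and it was tested if at least 3 arrays reached log2 4, which left 11274 genes. limma 3.58.1 in R 4.3.3 fitted genotype to all 9 arrays (lmFit, eBayes with a trend, 6 residual degrees of freedom), with 2-sided tests and Benjamini-Hochberg adjustment over all genes tested. A second fit took all 19834 probe sets with 1 gene that passed the same filter. The script was checked on simulated data. Figures were drawn with matplotlib 3.10.9.

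The 10 genes, the 18 gene lists, the rule for naming genes (the 10 genes with all their probe sets, called members of the lists, and the 5 genes closest to Dbp and to Npas2) and the alternatives were chosen with earlier results of these data known. Genes named although not called were chosen after their values were seen. Of 167 list entries 161 were matched by symbol. The labels do not say what a replicate number stands for. Same-numbered hGAS and GasKO arrays deviated together from their group means (r = 0.117, 0.201 and 0.267 over genes), so blocked values are given for hGAS vs GasKO where they change a call. Alternatives covered the filter, array normalisation, probe set choice, eBayes settings, array weights, a replicate block, 6-array fits, the threshold and leaving out each array.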

Additional observations from a re-analysis of the deposited data

How the results depend on the processing

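Over 22 alternatives, Npas2 and Per1 kept their calls in GasKO vs WT under 10 and 9, and Cry1 kept its call in hGAS vs WT under 12 of the 21 that gave a value. In hGAS vs GasKO, Cry1 and Nfil3 kept their calls under all 21 that gave a value, Npas2 under 21 of 22, Hlf under 19 of 20, and Per1 and Nr1d1 under 16 of 22. Hlf and Nfil3 have no value with the filter at log2 5, Hlf none with probe sets averaged and Cry1 none with probe sets designed for 1 transcript, since they were then not tested.

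In GasKO vs WT, 2 of the 10 genes were called, but 0 with no filter, without the eBayes trend, with array weights or in a fit to 6 arrays, 1 with probe sets averaged and 1 with the replicate block, and from 0 to 1 when 1 array was left out. The number of genes called there was between 888 and 1375 without 1 array, and 2182 with every probe set in the fit. In hGAS vs WT, 1 of the 10 was called, but 0 with no filter, with probe sets designed for 1 transcript or in a fit to 6 arrays, 3 at a threshold of 0.1, and from 0 to 1 without 1 array. The number of genes called there was 58 with no filter, 27 in a fit to 6 arrays, 340 at a threshold of 0.1 and from 26 to 104 without 1 array. In hGAS vs GasKO the 10 genes had from 3 to 7 calls without 1 array, and all genes from 1219 to 1996, or 2925 with every probe set in the fit. The cause of these differences was not tested, apart from fewer arrays or other numbers of features in the fit.

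Deviations from the group means were correlated above 0.1 in 7 of 9 same-numbered pairs of arrays (-0.006 to 0.267) and in 3 of 18 differently numbered pairs (-0.292 to 0.113). All 3 hGAS and GasKO pairs were above 0.1. With WT, replicate 2 was not (0.084 with hGAS and -0.006 with GasKO, against 0.101 with GasKO replicate 3), so for comparisons with WT pairing by number is a hint from the data. With the replicate block 283 genes were called in hGAS vs WT, and 3 of the 10, Cry1 (adjusted p = 0.0350), Dbp (0.0345) and Nfil3 (0.0326). Per1 was not called with it in GasKO vs WT (0.0549). In hGAS vs GasKO 8 of the 10 were called, Dbp and Nr1d2 in addition, and it changed no other call among the 10 genes.

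Differences close to 0 changed sign under some settings, with none called. In GasKO vs WT, Nr1d1 stood at -0.016 with quantile normalisation, -0.017 with median centring and -0.064 with array weights. Without 1 array it ran from -0.162 to 0.141, Nr1d2 from -0.063 to 0.093, Cry1 from -0.025 to 0.071, Hlf from -0.106 to 0.213 and Nfil3 from -0.217 to 0.108. In hGAS vs WT, Per1 stood at 0.080 with array weights and ran from -0.299 to 0.150 without 1 array, and Per2 ran from -0.526 to 0.032. Quantile normalisation and median centring moved the median difference of all genes by at most 0.0127 and 0.0194.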
